A study of Drosophila melanogaster with 9 samples.

Results

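The genes described are those that set the identity of the anterior and posterior compartments of the fly wing disc and carry the Hedgehog signal between them. They were chosen by name, as en, inv, hh, ci, ptc, smo and fu, and 6 of the 7 had a probe set of that name, 1 each, among 11982 genes tested. fu, which encodes a kinase of the pathway, was not analysed here. Affymetrix arrays measured RNA in sorted cells of wing imaginal discs, the epithelial sacs of the larva that form the adult wing, from w1118 larvae about 8 days old. All discs carried the same transgenes. In cells where the driver en-gal4 is active it expressed the caspase blocker p35, a double-stranded RNA against the spindle pole gene asp, and the red fluorescent protein RFP, and an MMP1-GFP reporter marked cells in which the matrix metalloproteinase gene is active. The Anterior group held cells without RFP and GFP, which can be any disc cell without driver activity. The Posterior-Low group held cells with RFP alone, and the Posterior-High group, labelled as the delaminating population, held cells with RFP and GFP. Each group had 3 biological replicates. Anterior cells thus differ from both RFP-positive groups in compartment, in transgene expression and in tissue composition, which cannot be told apart in this design.

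In the wing disc, the homeodomain proteins Engrailed and Invected specify posterior identity, turn on the secreted ligand gene hh and repress ci. Hedgehog crosses into anterior cells and binds its receptor Patched, which relieves the inhibition of the membrane protein Smoothened and leads to activation of the zinc finger transcription factor Ci. Active Ci raises ptc itself along with dpp and kn in a stripe of anterior cells beside the boundary, and late in larval life Hedgehog also induces some en in anterior cells at the boundary.

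Values are log2 signals, so that a difference of 1 is a doubling. Array medians lay between 7.47 and 7.55 and lower quartiles between 6.01 and 6.34. Detection calls were not used here, and a signal under the lower quartile may therefore be background. Anterior replicate 3 stood apart, with correlations of 0.884 to 0.907 with the other arrays, against 0.950 to 0.988 among the other 8. asp, the target of the double-stranded RNA, and Mmp1, the gene of the reporter, had no probe set of those names and were not analysed here, so neither checks the labels. A gene is called where its Benjamini-Hochberg adjusted p from limma, over all 11982 genes, was under 0.05. The 3 comparisons share groups, so their results are not independent of each other.

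The posterior selectors and the ligand gene were higher in both RFP-positive groups than in Anterior cells, and ci was lower. Against Anterior cells, Posterior-Low cells had 3 of the 6 measured genes called higher, where 0.0918% of all genes were, and 1 called lower, where 0.484% were. Posterior-High cells also had 3 called higher and 1 called lower, against 2.40% and 1.43% of all genes. In each of these comparisons, which share the Anterior arrays, en, inv and hh were higher and ci was lower. These counts include en, on whose driver the cells were sorted, and its neighbouring paralog inv, so they are in part a check of the sort. Arrays of the 2 groups did not overlap for 5 of the 6 genes in Posterior-Low against Anterior, where 18.4% of all genes were apart, and for 5 of the 6 in Posterior-High against Anterior, where 21.2% were. smo was the gene whose groups overlapped.

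**Figure D1:**
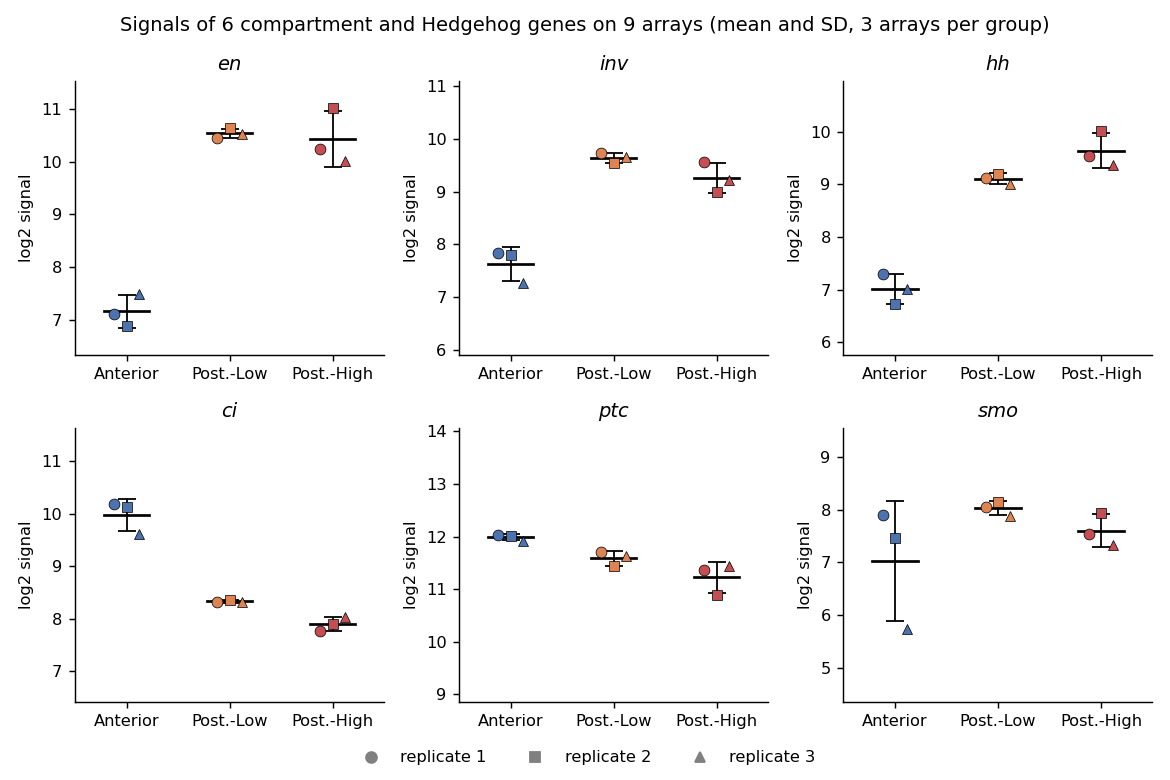
Log2 signals (vertical axes, each spanning the same range) of the 6 measured genes on the 9 arrays, by group on the horizontal axis. Symbols mark replicates 1 to 3, lines the group mean and bars the SD over 3 arrays. For en, inv and hh all 6 RFP-positive arrays lie above the 3 Anterior arrays, for ci all 6 lie below, and for smo Anterior replicate 3 lies far below the rest.

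The posterior selector gene en had Anterior signals of 7.10, 6.88 and 7.49 in replicates 1 to 3. Its Posterior-Low signals were 10.45, 10.64 and 10.53, and its Posterior-High signals 10.24, 11.03 and 10.01. All RFP-positive arrays were thus far above all Anterior arrays, while the Posterior-High arrays spread to both sides of the Posterior-Low ones. Posterior-Low cells were 10.4-fold above Anterior cells (log2 difference 3.38 ± 0.27 SE, n = 3 arrays per group, limma adjusted p = 0.000288), which ranked 1 of 11982 genes from the highest. Posterior-High cells were 9.65-fold above Anterior cells (3.27 ± 0.27 SE, adjusted p = 0.000221), at rank 5. Because RFP was expressed from an en driver, the sort selected on activity linked to this gene, and its difference between RFP-positive and RFP-negative cells is a check of the sort. The Anterior signals of en lay above the lower quartile of every array.

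inv, the neighbouring paralog of en with an overlapping role, showed the same pattern at a smaller size. Its signals were 7.83, 7.80 and 7.26 in Anterior, 9.73, 9.54 and 9.67 in Posterior-Low, and 9.56, 8.99 and 9.23 in Posterior-High cells. Anterior arrays were lowest throughout, and of the Posterior-High arrays replicate 1 lay within the Posterior-Low range and the other two lay below it. Posterior-Low exceeded Anterior 4.05-fold (log2 difference 2.02 ± 0.21 SE, adjusted p = 0.00165), at rank 5 of all genes. Posterior-High exceeded Anterior 3.10-fold (1.63 ± 0.21 SE, adjusted p = 0.00291), at rank 98. The probe sets of en and inv are of a type that can match more than 1 transcript, so signal shared between related transcripts was not separated here.

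hh, the ligand gene, had signals of 7.30, 6.72 and 7.01 in Anterior, 9.13, 9.20 and 9.0 in Posterior-Low, and 9.55, 10.01 and 9.37 in Posterior-High cells. The 3 groups did not overlap, and the Posterior-High arrays were the highest. Posterior-Low cells were 4.27-fold above Anterior cells (log2 difference 2.10 ± 0.22 SE, adjusted p = 0.00152), at rank 3. Posterior-High cells were 6.17-fold above Anterior cells (2.63 ± 0.22 SE, adjusted p = 0.000221), at rank 24.

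ci, the transcription factor gene of cells that receive the signal, ran the opposite way. Its signals were 10.17, 10.12 and 9.62 in Anterior, 8.32, 8.36 and 8.32 in Posterior-Low, and 7.77, 7.89 and 8.04 in Posterior-High cells. Again the 3 groups did not overlap, with Posterior-High lowest. ci was 3.12-fold lower in Posterior-Low than in Anterior cells (log2 difference -1.64 ± 0.18 SE, adjusted p = 0.00239) and 4.20-fold lower in Posterior-High than in Anterior cells (-2.07 ± 0.18 SE, adjusted p = 0.000316). These differences ranked 55 and 35 from the lowest of 11982 genes. The Posterior-High signals of ci stayed above the lower quartile of every array. ci lies on chromosome 4, whose 65 tested genes had median differences of 0.15 in Posterior-Low and 0.06 in Posterior-High against Anterior cells, beside 0.09 and 0.05 over all genes. Of these 65 genes, ci included, 2 were called lower in Posterior-Low and 5 in Posterior-High against Anterior cells, where 0.484% and 1.43% of all genes were. Called higher were 0 and 1 of the 65. The part of the chromosome in the difference of ci was not tested.

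**Figure D2:**
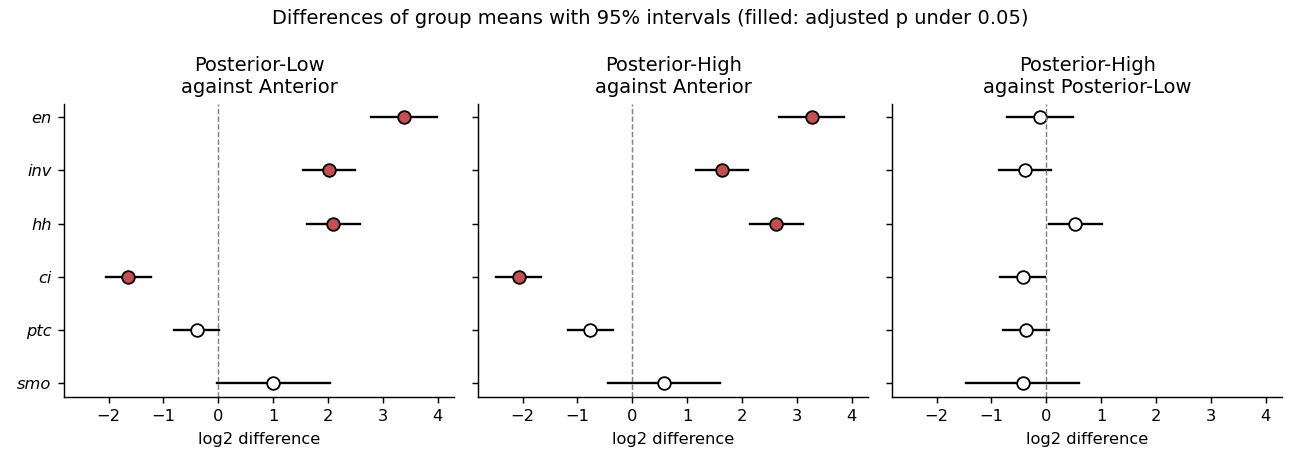
Log2 differences of group means (horizontal axes) with 95% intervals from the limma fit for the 6 genes, 1 panel per comparison. Filled points had an adjusted p under 0.05. en, inv, hh and ci are filled in both comparisons with Anterior cells, and no point is filled between the RFP-positive groups, where the intervals of hh and ci leave out 0.

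ptc encodes the Hedgehog receptor and is itself a target of the signal. Its signals were 12.02, 12.01 and 11.92 in Anterior, 11.71, 11.43 and 11.63 in Posterior-Low, and 11.36, 10.88 and 11.44 in Posterior-High cells. All RFP-positive arrays were below all Anterior arrays, and the lowest array, at 10.88, was still far over the array medians. The log2 difference was -0.40 in Posterior-Low against Anterior (95% interval -0.81 to 0.02, adjusted p = 0.531) and -0.76 in Posterior-High against Anterior (-1.18 to -0.35, adjusted p = 0.0532). Neither was called. The difference of Posterior-High from Anterior was called in 5 of 18 alternative settings, among them quantile normalization repeated (adjusted p = 0.0355) and each array centred on its median (adjusted p = 0.0457), within a range of 0.00398 to 0.165 over all of them.

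smo encodes the signal-transducing membrane protein that Patched inhibits. Its signals were 7.89, 7.46 and 5.73 in Anterior, 8.06, 8.15 and 7.89 in Posterior-Low, and 7.55, 7.94 and 7.33 in Posterior-High cells. The lowest value was that of Anterior replicate 3, below that array's lower quartile of 6.34, and the other 8 arrays lay within 1 unit of each other. The log2 difference was 1.01 in Posterior-Low against Anterior (95% interval -0.02 to 2.03, adjusted p = 0.529) and 0.58 in Posterior-High against Anterior (-0.45 to 1.60, adjusted p = 0.562). Without Anterior replicate 3 these values were 0.36 and -0.07, so the size of the first and the sign of the second rested on that array.

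The 2 RFP-positive groups carry the same transgenes and differ in the MMP1-GFP reporter, which asks whether cells labelled as delaminating hold their compartment identity. None of the 6 genes was called in Posterior-High against Posterior-Low cells by limma, against 0.643% of all genes called higher and 0.159% called lower, and 2 of the 6 had an unadjusted p under 0.05, where 9.98% of all genes did. Those were hh and ci, whose arrays were also apart, as were 22.3% of all genes. hh was 1.44-fold higher in Posterior-High cells (log2 difference 0.53, 95% interval 0.05 to 1.01, unadjusted p = 0.0343, adjusted p = 0.422). ci was 1.35-fold lower (-0.43, interval -0.84 to -0.02, unadjusted p = 0.0425, adjusted p = 0.460).

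The posterior selectors en and inv, as well as ptc and smo, showed no called shift between the RFP-positive groups either. en differed by -0.11 (95% interval -0.71 to 0.48, adjusted p = 0.983), inv by -0.39 (-0.86 to 0.09, adjusted p = 0.617), ptc by -0.37 (-0.78 to 0.05, adjusted p = 0.570) and smo by -0.43 (-1.45 to 0.60, adjusted p = 0.894). These intervals reach to about a doubling or less for en, inv and ptc, and do not show that the groups are alike. The median of the 6 genes was -0.38, beside 0.00 over all genes.

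Within Posterior-High cells, replicate 2 had the highest en and hh signals and the lowest inv and ptc signals, so the paralogs en and inv stood at opposite ends of their group on that array. The same array had the highest mean signal of 10 hemocyte (larval blood cell) markers, 9.94, where the other Posterior-High arrays had 7.98 and 7.75. The part of blood cell RNA in the values of en, hh, inv and ptc was not tested. Without replicate 2 the differences of Posterior-High from Posterior-Low were -0.41 for en, 0.35 for hh, -0.25 for inv, -0.19 for ptc and -0.43 for ci, and none of them was called.

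Markers of other cells moved with the sort. All 8 measured muscle precursor markers, genes of mesodermal cells beneath the notum, had lower means in Posterior-Low than in Anterior cells, and 5 of them were called. In Posterior-High against Anterior cells 7 of the 8 were called lower, and in Posterior-High against Posterior-Low cells 2 were, Him by a log2 difference of -1.95 (adjusted p = 0.0381) and hbs by -1.27 (adjusted p = 0.0465). Between the RFP-positive groups 1 of the 8 went the other way. This was zfh1, with a mean of 8.03 in Posterior-High and 6.66 in Posterior-Low cells, and 9.47 on Posterior-High replicate 2. The mean signal of the list lay between 9.81 and 10.19 on Anterior arrays, between 7.04 and 7.53 on Posterior-Low and between 6.42 and 7.11 on Posterior-High arrays. Of its genes, the FGF receptor gene htl was below the lower quartile on all 6 RFP-positive arrays, Nrt on 5 of the 9 arrays and Him on 3, and twi, zfh1, ct, hbs and kirre on 0. In bulk samples fewer cells of a type and less RNA per cell cannot be told apart, and the part of muscle precursor RNA in the differences of ci, ptc and smo from Anterior cells and between the RFP-positive groups was not tested.

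The other marker lists gave a mean signal over their genes as follows. The 10 hemocyte markers had 7.86 to 8.88 on Anterior, 6.87 to 8.17 on Posterior-Low and 7.75 to 9.94 on Posterior-High arrays, and of these genes srp was below the lower quartile on 8 of 9 arrays, NimC1 on 2, Hml, He and crq on 1 each, and Pxn, eater, Col4a1, vkg and ush on 0. The 3 wing pouch markers had 11.35 to 11.73, 11.69 to 11.92 and 11.32 to 11.71 in the same order, and the 4 notum and hinge markers had 8.49 to 9.42, 8.12 to 8.69 and 7.68 to 8.09. Of the notum and hinge genes, tsh was called lower in all 3 comparisons and mirr in Posterior-High against Posterior-Low, while pouch genes were called in none of them. The 5 glia markers had 7.09 to 7.99, 8.22 to 8.24 and 8.80 to 8.84, the 4 tracheal markers 10.48 to 10.85, 11.15 to 11.24 and 10.83 to 11.27, and the 3 neuronal markers 9.21 to 9.36, 9.06 to 9.37 and 9.14 to 9.42. The 3 fat body markers had 5.66 to 6.64, 5.54 to 5.74 and 5.50 to 6.14, and the 2 peripodial markers 6.13 to 7.40, 6.31 to 6.89 and 6.67 to 6.96. Of the glia list, repo was below the lower quartile on 9 of 9 arrays, moody on 2, Gli on 1, and loco and nrv2 on 0. In that list moody had means of 6.38, 7.69 and 9.81 in the 3 groups, and Gli 7.29, 8.67 and 8.95. With repo so low, these values are not a measure of glia. Of the fat body genes, Lsp2 was below the lower quartile on 8 arrays, apolpp on 7 and Fbp1 on 0, and of the notum and hinge genes pnr was on 6. Besides the notum and hinge genes, the called genes of these lists were the collagen gene vkg of the hemocyte list, lower in both RFP-positive groups than in Anterior cells, and moody of the glia list and serp of the tracheal list, higher in Posterior-High than in Anterior cells. Of the 10 hemocyte markers, 4 had higher means in Posterior-Low and 7 in Posterior-High than in Anterior cells, with median differences of -0.98 and 0.65. Between the RFP-positive groups 9 of the 10 were higher in Posterior-High cells, with a median of 1.11 and 0 called. The part of these marker lists in the values of the compartment genes was not tested.

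Other genes of the pathway were taken from lists by role. Of 8 measured genes for processing, release and spread of the ligand, limma called 0 in each comparison, with 2, 2 and 3 at an unadjusted p under 0.05 in Posterior-Low against Anterior, Posterior-High against Anterior and Posterior-High against Posterior-Low. Their median differences were 0.38, 0.34 and 0.03 in that order, beside 0.09, 0.05 and 0.00 over all genes. The list's mean signal was 9.56, 9.34 and 9.11 on Anterior replicates 1 to 3, lowest on the replicate 3 that stood apart. It was 9.51 to 9.78 on Posterior-Low and 9.43 to 9.96 on Posterior-High arrays. List medians without Anterior replicate 3 were not computed. Of all genes, 9.98% had an unadjusted p under 0.05 by limma in Posterior-High against Posterior-Low. That share was not counted for the comparisons with Anterior cells, so the unadjusted counts there, for this list and the lists below, have no background beside them. rasp, the acyltransferase that adds a lipid to Hedgehog, had 8.50 ± 0.08 in Anterior, 8.97 ± 0.07 in Posterior-Low and 8.50 ± 0.11 in Posterior-High cells (mean ± SD, n = 3). Posterior-Low arrays of rasp were the highest, with a difference of 0.47 from Anterior cells (adjusted p = 0.344) and of -0.47 for Posterior-High from Posterior-Low (adjusted p = 0.269). shf, a secreted protein that aids Hedgehog movement, differed by 0.46 in Posterior-Low (adjusted p = 0.452) and 0.58 in Posterior-High (adjusted p = 0.120) against Anterior cells. dlp, a glypican of the cell surface, differed by 0.56 in Posterior-High against Anterior (adjusted p = 0.148) and by 0.47 against Posterior-Low cells (adjusted p = 0.403).

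Of 13 measured genes for transduction in the receiving cell, limma called 0 in each comparison, with 1, 2 and 0 at an unadjusted p under 0.05. Their medians were 0.21, 0.22 and 0.00. The list's mean signal was 9.58, 9.49 and 8.97 on Anterior replicates 1 to 3, again lowest on replicate 3. It was 9.49 to 9.57 on Posterior-Low and 9.45 to 9.76 on Posterior-High arrays. The medians against Anterior cells thus do not show that the list is raised in RFP-positive cells. rdx, an adaptor for the degradation of Ci that is also a Hedgehog target, had 11.94, 12.16 and 11.89 in Anterior, 11.73, 11.63 and 11.72 in Posterior-Low, and 11.46, 11.31 and 11.72 in Posterior-High cells. All RFP-positive arrays of rdx lay below the Anterior ones, with differences of -0.30 (adjusted p = 0.563) and -0.50 (adjusted p = 0.158), and another probe set of rdx differed by 0.02 and 0.23. krz, an arrestin, differed by 0.79 in Posterior-Low against Anterior cells (adjusted p = 0.517). Its Anterior signals were 6.16, 6.30 and 4.81, and the mean of 5.76 lay below the lower quartiles only because of replicate 3. slmb, a ubiquitin ligase subunit that acts on Ci, differed by 0.78 in Posterior-High against Anterior cells (adjusted p = 0.252). Its Anterior mean of 5.81 was also below the lower quartiles, with 2 of the 3 Anterior arrays below their own. In Posterior-High against Posterior-Low cells slmb differed by 0.45 (adjusted p = 0.741) and rdx by -0.20 (adjusted p = 0.818).

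**Figure D3:**
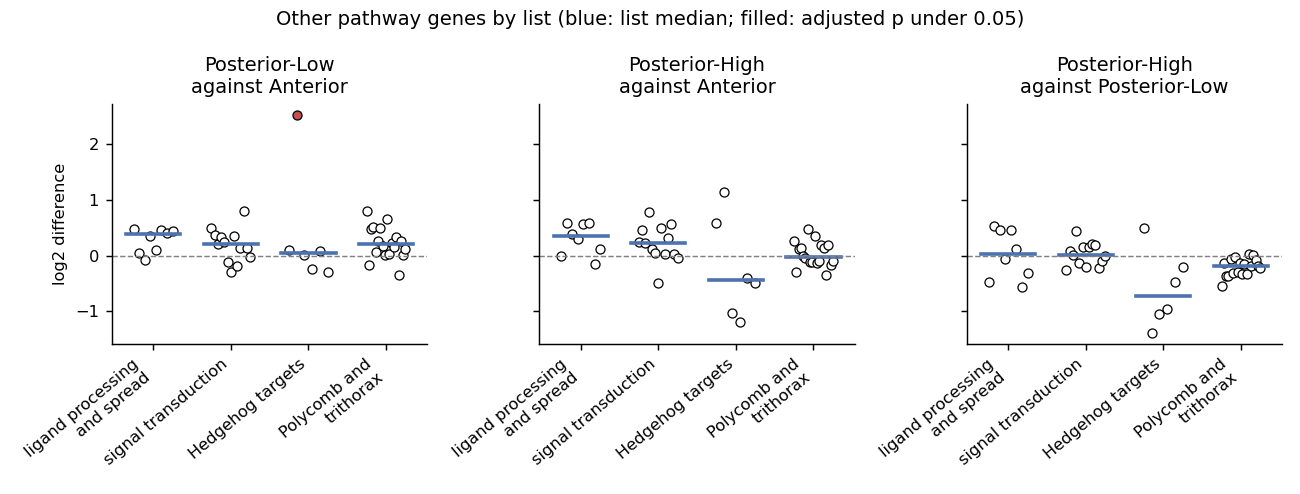
Log2 differences (vertical axis) of the measured genes of 4 lists, 1 panel per comparison. Each point is a gene, blue lines mark list medians and filled points had an adjusted p under 0.05. The single filled point is kn, 2.53 higher in Posterior-Low than in Anterior cells, and the target list has its lowest median, -0.72, in Posterior-High against Posterior-Low cells.

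The 6 other Hedgehog target genes included 1 called gene, kn, which encodes a transcription factor of the intervein region in the middle of the wing. Its signals were 6.55, 6.16 and 5.59 in Anterior, 8.81, 9.02 and 8.05 in Posterior-Low, and 7.23, 7.40 and 7.09 in Posterior-High cells. The groups did not overlap, and Posterior-Low was highest. kn was higher in Posterior-Low than in Anterior cells by 2.53 ± 0.30 SE (adjusted p = 0.00337), although the stripe named for it as a target lies in anterior cells. The Anterior signals of kn were near the floor. Replicate 3 lay below its array's lower quartile of 6.34, and replicate 2 lay close to its own of 6.14. The Anterior level of kn may therefore be background. In Posterior-High cells kn differed by 1.14 from Anterior (adjusted p = 0.0702) and by -1.39 from Posterior-Low cells (95% interval -2.06 to -0.72, adjusted p = 0.0791). Another probe set of kn had means of 5.16, 5.07 and 5.06 in the 3 groups, below the lower quartiles, so the pattern rested on the brighter one.

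ara and caup, neighbouring homeobox genes of the Iroquois complex, were lowest in Posterior-High cells. ara had 9.40, 9.65 and 8.52 in Anterior, 8.98, 9.33 and 9.28 in Posterior-Low, and 8.17, 7.92 and 8.38 in Posterior-High cells. Its Posterior-High arrays were below all others, at -1.04 from Posterior-Low (95% interval -1.67 to -0.41, adjusted p = 0.180). caup had 8.34, 8.55 and 7.51, then 7.85, 7.95 and 7.89, then 6.55, 7.53 and 6.72 in the same order. caup differed by -1.20 in Posterior-High against Anterior cells (adjusted p = 0.0705), where 1 array of each group overlapped, and by -0.96 against Posterior-Low (adjusted p = 0.286). Of the 4 notum and hinge markers, mirr differed by -1.82 (limma adjusted p = 0.0381) and tsh by -1.11 (adjusted p = 0.0283) between the RFP-positive groups. In that comparison 1 of the 4, pnr, went the other way. The part of notum and hinge cells in the differences of ara and caup was not tested.

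dpp, the BMP ligand gene induced at the boundary, had 9.0, 8.63 and 6.62 in Anterior, 8.22, 8.31 and 8.01 in Posterior-Low, and 8.62, 8.87 and 8.51 in Posterior-High cells. Its lowest value was again that of Anterior replicate 3, and its differences were 0.10 (adjusted p = 0.940) and 0.59 (adjusted p = 0.589) against Anterior cells and 0.49 between the RFP-positive groups (adjusted p = 0.875). sbb, which lowers the Dpp receptor gene tkv, differed by -0.48 between the RFP-positive groups (adjusted p = 0.400). Over the list, limma called 1, 0 and 0 genes in Posterior-Low against Anterior, Posterior-High against Anterior and Posterior-High against Posterior-Low. At an unadjusted p under 0.05 there were 1, 4 and 4, of which the 4 between the RFP-positive groups, kn, ara, caup and sbb, were all lower in Posterior-High cells. In that comparison 9.98% of all genes had such a p. Whether these shifts follow from Hedgehog signalling was not tested.

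**Figure D4:**
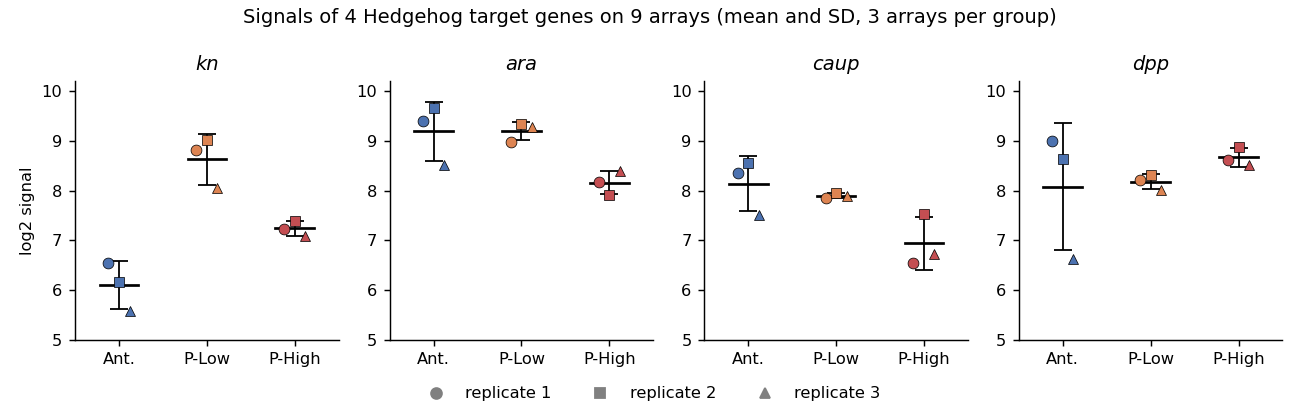
Log2 signals (vertical axis) of kn, ara, caup and dpp on the 9 arrays by group, with symbols for replicates, lines for means and bars for the SD over 3 arrays. kn is highest in Posterior-Low cells, ara and caup are lowest in Posterior-High cells, and Anterior replicate 3 is low for dpp at 6.62.

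Regulators of en and inv were also examined, since Polycomb group proteins hold both genes off in anterior cells and trithorax group proteins act against them. Of 18 genes measured among 25 listed, limma called 0 in each comparison, with 1, 0 and 1 at an unadjusted p under 0.05. pho, ph-p and ph-d were among those not measured. Their medians were 0.20, -0.03 and -0.19. The list's mean signal was 9.58, 9.52 and 9.03 on Anterior replicates 1 to 3, lowest on replicate 3. It was 9.56 to 9.69 on Posterior-Low and 9.36 to 9.45 on Posterior-High arrays. Pc, the chromodomain protein that gives the group its name, had 8.02, 7.59 and 7.45 in Anterior, 8.27, 8.78 and 8.42 in Posterior-Low, and 7.79, 8.15 and 7.90 in Posterior-High cells. Posterior-Low arrays of Pc were the highest, by 0.80 over Anterior cells (adjusted p = 0.210), and Posterior-High lay at -0.54 from them (adjusted p = 0.403). ash2, of the trithorax group, differed by -0.35 (adjusted p = 0.529) in Posterior-Low and by -0.34 (adjusted p = 0.324) in Posterior-High against Anterior cells. Su(z)12, a subunit of the Polycomb histone methyltransferase, differed by 0.47 in Posterior-High against Anterior cells (adjusted p = 0.499), and the histone-binding subunit gene Caf1-55 by -0.29 between the RFP-positive groups (adjusted p = 0.610). gro, which encodes a corepressor that binds Engrailed, had differences of 0.13, -0.06 and -0.19, with adjusted p of 0.748, 0.897 and 0.837. It was the only 1 of 3 listed cofactors of Engrailed measured, as exd and hth were not.

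Apart from en and inv themselves, the nearest measured genes beside these loci were called in none of the 3 comparisons. In the RefSeq gene order en and inv are direct neighbours, and the nearest other measured genes were Egm beyond en and qvr beyond inv. Egm differed by 0.15 in Posterior-Low against Anterior cells (adjusted p = 0.715) and by -0.02 in Posterior-High against Anterior (adjusted p = 0.963). qvr differed by -1.51 (adjusted p = 0.461) and -1.03 (adjusted p = 0.425), opposite in sign to inv, with an Anterior SD of 1.48. CG31457 and unk, beside hh, differed by 0.32 and 0.03 in Posterior-Low against Anterior cells (adjusted p = 0.596 and 0.961). PlexB and Ank, the nearest measured genes to ci, had the sign of ci, at -0.59 and -1.02 in Posterior-Low (adjusted p = 0.441 and 0.433) and -0.66 and -1.18 in Posterior-High against Anterior cells (adjusted p = 0.162 and 0.133). Beside ptc, CG8635 and Acsl differed by 0.32 and 0.79 in Posterior-High against Anterior cells (adjusted p = 0.496 and 0.344), opposite in sign to ptc. Beside smo, CG17078 differed by 0.58 and CG11601 by 0.15 in Posterior-Low against Anterior cells (adjusted p = 0.467 and 0.804).

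The genes most like each member in pattern were ranked by Pearson's r over the 9 arrays among 11981 others, as a description, since the arrays share their groups and processing. The 3 nearest to en were CG43394 (r = 0.978), CG5478 (0.968) and hh (0.968). The 3 nearest to hh were CG5478 (0.979), en (0.968) and iPLA2-VIA (0.968), so en and hh were each among the other's nearest genes. inv was nearest to CG30148 (0.971), Cht5 (0.964) and CG10939 (0.960), and en was not among them. ci was nearest to CG9899 (0.994), Gr36a (0.987) and the muscle precursor marker htl (0.979). Nearest to ptc were ng4 (0.975), CG11498 (0.975) and CG1724 (0.962), and nearest to smo were Phs (0.986), CG31342 (0.984) and nsl1 (0.983). The Anterior SDs of Phs, CG31342 and nsl1 were 0.90, 0.56 and 0.50, each the largest of its 3 groups, as was that of smo at 1.14.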

How the data were processed

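RNA of 9 samples was measured on arrays after whole-transcriptome amplification, per the labels' protocols. The deposited values are log2 signals per probe set, made by the authors with RMA per the submitters' processing notes; its version is not given in the sources used here. RMA equalizes the distributions of arrays, and array folds tend to understate large differences. The values were used as deposited. Of 18952 probe sets, 183 controls were left out, 13647 had 1 gene symbol, 402 several and 4720 none. Symbols were updated through gene IDs to RefSeq of assembly GCF_000001215.4 (11890 of 11982 genes). Of 1094 genes with more than 1 probe set the brightest mean was used.

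Groups came from sample titles. limma 3.58.1 in R 4.3.3 fitted a mean per group to all 9 arrays, two-sided, with p-values adjusted over genes. The procedure was tested on simulated data. Members, lists and tests were chosen with earlier results of these data known. Named are the members, up to 4 called genes of each list and comparison or 2 with the smallest p, the 3 most similar genes and both neighbours of each member. For marker lists the text gives levels with a few examples, and ara, caup, sbb and dpp are shown in comparisons where the rule did not name them, chosen after their values were seen. Alternatives were a replicate block, a filter on the dimmest 25%, repeated quantile normalization, median centring, all probe sets, the mean of probe sets, only the groups compared, robust variances with an intensity trend, weights per array, and each array left out. Figures used matplotlib 3.10.9.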

Additional observations from a re-analysis of the deposited data

How the results depend on the processing

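Over 18 alternatives, 316 of 324 values of single compartment and Hedgehog genes kept their direction and their side of the threshold. Another 6 passed it while keeping direction. Many of these directions could not change. Each of the 6 genes had 1 probe set, so the settings on probe sets left its log2 differences as they were. So did the filter on dim genes, the replicate block, only the groups compared, robust variances, and leaving out an array of a group not compared. In those settings only the adjusted p could move, so their kept directions are no check. Calls of en, inv, hh and ci against Anterior cells held in all 18. The reversals were smo in Posterior-High against Anterior without Anterior replicate 3 (range over left-out arrays -0.070 to 1.01) and en in Posterior-High against Posterior-Low without Posterior-High replicate 3 (range -0.41 to 0.093), where neither was called. With array weights 1 of the 6 genes, ci, was called between the RFP-positive groups (-0.49, adjusted p = 0.0303), within a range of 0.0303 to 0.801 for ci over its alternatives, and 5 of the 6, ptc included, were called in Posterior-High against Anterior. The cause was not tested.

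Counts over all genes moved more. Posterior-Low against Anterior had 69 calls, 129 with all probe sets, 427 with array weights and 35 to 88 with an array left out. Posterior-High against Anterior had 458 calls, 709 with all probe sets, 180 with only the groups compared, 1974 with array weights and 212 to 567 with an array left out. Posterior-High against Posterior-Low had 96 calls, 185 with only the groups compared, 749 with array weights and 17 to 281 with an array left out. More features were tested with all probe sets, and fewer arrays entered with only the groups compared; for the other settings the cause was not tested.

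Samples were treated as unpaired in the main fit. Deviations from group means correlated at -0.12 to 0.18 for same-numbered arrays of different groups, not all above 0.1, and at -0.18 to 0.15 for differently numbered ones. These values cannot exclude that equal replicate numbers mark samples prepared together. With a replicate block 59, 377 and 66 genes were called in the 3 comparisons, and it changed no call of the 6 genes. Signals near the lower quartile, such as smo on Anterior replicate 3, limit what can be read from them.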
